A study of Mus musculus with 2 samples.

Results

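The strong NRF1 peaks that lie inside protein-coding genes, far from their annotated start sites, number 699 of the 17256 peaks of the optimal set on chromosomes 1 to 19 (4.05%), and they make up 9.85% of the 7093 peaks of that set with a signal of 50 or more. They were chosen by the deposited signal value, the authors' own measure of peak strength on a scale that is not stated (50 or more), by the distance of the summit from every protein-coding start site in RefSeq (over 5000 bp, mm10) and by a summit within the bounds of a protein-coding gene. The data are TF ChIP-seq, in which DNA bound by a factor is pulled down with an antibody and sequenced. Both libraries are biological replicates, pulled down with an NRF1 antibody from cells of CH12.LX, an immortalized mouse B-cell lymphoma line whose strain is labelled B10.H-2aH-4bp/Wts, and they form the only group, with no treatment or genotype compared. The line stands for 1 tumour-derived cell population, and no expression was measured in this series, so neither the cell type nor the activity of any gene could be checked against markers. The peak lists give no read counts, so depth is unknown.

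NRF1 (nuclear respiratory factor 1) binds DNA as a dimer at a GC-rich palindrome that holds CpG dinucleotides, and it is best known at the CpG-island promoters of housekeeping genes, among them nuclear genes for mitochondrial proteins. Its binding is known to be hindered by methylation of the CpGs in its site, and CpG-poor gene bodies are in general heavily methylated in mammalian cells. Methylation was not measured here. Peaks inside genes are therefore described below by the site under the summit, by the CpG content around it and by the transcripts that start nearby.

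The sequences at the summits show what the strongest of these peaks carry. Each line gives the 101 bases centred on the summit of the matching peak of the mm9 set, on the plus strand of NCBIM37 (mm9). The first 6 are the members of highest signal that hold the exact NRF1 consensus, taken as the palindrome GCGCATGCGC or the form GCGCACGCGC on either strand, and the capitals mark it. Each of these 6 carried the palindrome.
Maml3 chr3:51600446-51600546: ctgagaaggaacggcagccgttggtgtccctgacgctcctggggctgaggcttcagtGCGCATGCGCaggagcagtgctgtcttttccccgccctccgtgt
Arid1b chr17:5295818-5295918: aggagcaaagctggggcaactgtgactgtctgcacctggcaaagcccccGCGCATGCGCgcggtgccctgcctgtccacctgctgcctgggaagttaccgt
Lmtk2 chr5:144942329-144942429: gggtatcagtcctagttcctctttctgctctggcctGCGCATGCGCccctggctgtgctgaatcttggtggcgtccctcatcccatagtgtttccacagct
Cblb chr16:52060482-52060582: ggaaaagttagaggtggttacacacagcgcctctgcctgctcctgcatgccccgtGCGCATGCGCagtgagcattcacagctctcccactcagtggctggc
Bcas3 chr11:85337831-85337931: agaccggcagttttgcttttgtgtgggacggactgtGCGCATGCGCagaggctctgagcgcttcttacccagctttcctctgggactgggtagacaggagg
Dennd2a chr6:39477417-39477517: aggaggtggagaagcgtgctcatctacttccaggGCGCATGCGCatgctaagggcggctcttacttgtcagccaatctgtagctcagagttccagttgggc

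The next 2 are among the 3 members of highest signal with no site within 1 mismatch of the consensus, shown because most members are of that kind. The capitals mark TGCGCA, a palindrome of 6 bases that is part of many longer NRF1 sites.
Bicral chr17:46989790-46989890: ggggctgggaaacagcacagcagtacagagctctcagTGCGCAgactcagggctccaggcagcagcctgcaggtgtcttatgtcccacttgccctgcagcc
Macrod1 and Flrt1 chr19:7218532-7218632: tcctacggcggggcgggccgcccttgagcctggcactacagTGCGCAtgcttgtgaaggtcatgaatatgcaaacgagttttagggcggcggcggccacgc

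The last 4 show the 4 site forms that were more frequent at these peaks than at promoter peaks. Each form is a mismatch away from the palindrome and holds a lone CpG. Each line is the strongest member with no exact consensus in the window and with that form as its nearest site. The capitals mark the form, which reads as its reverse complement in Srcin1 and Ppa2.
Manba chr3:135180054-135180154: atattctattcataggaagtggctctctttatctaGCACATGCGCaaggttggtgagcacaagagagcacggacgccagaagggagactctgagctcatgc
Srcin1 chr11:97393188-97393288: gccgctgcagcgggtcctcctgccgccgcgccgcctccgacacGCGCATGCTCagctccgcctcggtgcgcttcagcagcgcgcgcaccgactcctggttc
Ppa2 chr3:133001818-133001918: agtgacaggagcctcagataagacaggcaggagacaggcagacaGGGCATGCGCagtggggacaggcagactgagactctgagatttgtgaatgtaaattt
Itpkb chr1:182295436-182295536: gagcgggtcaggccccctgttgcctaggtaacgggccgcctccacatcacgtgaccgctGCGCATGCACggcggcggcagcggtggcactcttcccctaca

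In all these windows the capitalised bases are centred within 20 bp of the summit, which is the middle of the line. The genes include Maml3, a coactivator of Notch signalling, Arid1b, a subunit of the BAF chromatin remodelling complex, the kinase gene Lmtk2, Cblb, a ubiquitin ligase that restrains lymphocyte receptor signalling, and Dennd2a, an exchange factor for Rab GTPases. Bicral encodes a subunit of another BAF-type complex, and Manba, Ppa2 and Itpkb encode lysosomal beta-mannosidase, the mitochondrial inorganic pyrophosphatase and an inositol trisphosphate kinase.

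The 20 members of highest signal ran from 606 to 689, and both replicates put each of them near the top of their scale, at 301 to 337 in replicate 1 and 305 to 358 in replicate 2. Signal chose the members, so these values are a description with no test. The Maml3 peak (chromosome 3, 51796391 to 51796757, mm10) had a signal of 689, with 335 in replicate 1 and 358 in replicate 2. The Arid1b peak (chromosome 17, 5295698 to 5296035) had 679, with 337 and 346 in replicates 1 and 2. The Lmtk2 peak (chromosome 5, 144181314 to 144181679) had 677, with 335 and 347. Replicate 2 was the higher one at all 3.

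The Cblb peak (chromosome 16, 52060260 to 52060601) had 671, with 334 and 340, and the Bcas3 peak (chromosome 11, 85524210 to 85524533) had 668, with 326 and 347. Cblb is bound in intron 3 of its longest transcript and Bcas3 in intron 16, and the summits lay 28884 and 171206 bp from the nearest RefSeq start. Next came Nnmt, nicotinamide N-methyltransferase, at 658, Dennd2a at 657 and Cyrib, a Rac1-binding regulator of actin, at 654. Mturn followed at 652 and Bicral at 649.

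Others of these 20 were Gcfc2 (644), the tumour suppressor gene Nf2 (638), the spectrin gene Sptbn4 (634), Srcin1, an inhibitor of Src kinase (633), the calcium channel gene Cacna1a (632) and Ankrd24 (625). Tnip1, which encodes an inhibitor of NF-kappaB signalling, had 620. Ctse, the protease cathepsin E, had 610 and Ttll1, a tubulin polyglutamylase gene, had 606. These genes share no pathway list that was tested. Of the 20 summits, 12 held the exact consensus within 50 bp, 7 more held a site with 1 mismatch, and Bicral held neither.

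Over all 699 members the median signal was 130.0, with quartiles of 73.1 and 265. The 4965 strong promoter peaks, whose summits lie within 1000 bp of a start, had a median of 272 with quartiles of 92.8 and 509, and the 898 strong intergenic peaks had 111 with quartiles of 67.5 and 262. The members' median was below that of promoter peaks above the same threshold, while their highest value of 689 lay near the promoter maximum of 703. Replicate 1 had a median of 70.8 over the members (11.4 to 337) and replicate 2 one of 59.4 (5.65 to 358), and replicate 1 was higher at 473 members (67.7%). The share was also 67.7% at promoter peaks and 59.9% at intergenic ones.

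Signals of the replicates followed each other, with a Spearman rho of 0.909 over the 699 members, 0.967 over 4964 promoter peaks and 0.862 over 897 intergenic peaks. This is a description of peaks in 1 genome that share their libraries, after a selection that used both replicates. The threshold fell in a dense range of weak peaks. Just inside it stood a peak in Arhgap24 at 50.1, with 47.0 in replicate 1 and 5.65 in replicate 2, a peak in Gas7 at 50.2 and a peak in Srcin1 at 50.4. Just outside stood peaks in Ttc7b at 49.8, and in Fam91a1 and Cachd1 at 49.9 each. By distance, the members nearest the limit lay 5110 bp (Abhd6), 5171 bp (Mast3) and 5190 bp (Ttc34) from a start, and the nearest peaks left out lay 4901 bp (Msra), 4908 bp (Art3) and 4914 bp (Cbx7) from one.

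**Figure D1:**
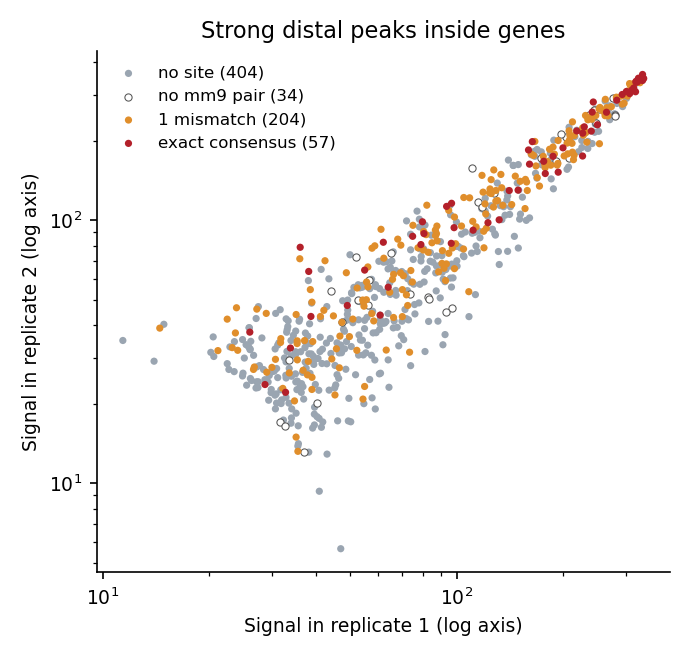
Signal of the 699 strong distal intragenic peaks in replicate 1 (horizontal) and replicate 2 (vertical), both on log axes, coloured by the NRF1 site within 50 bp of the summit; open circles are the 34 peaks with no matched mm9 summit. Peaks with the exact consensus (57) gather at the high end, and the spread between replicates is widest below a signal of 100 in either replicate.

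Of the members, 697 of 699 overlapped one of the 17256 peaks of highest signal in each replicate's own relaxed list, a permissive list of peaks and background (99.7%, 95% Wilson interval 98.96 to 99.9), all 699 in replicate 1 and 697 in replicate 2. The shares were 4963 of 4965 for promoter peaks (99.96%) and 894 of 898 for intergenic peaks (99.55%). With only the 8628 highest peaks of each list, they were 668 of 699 members (95.6%) and 4867 of 4965 promoter peaks (98.0%). The optimal set kept peaks whose ranks recurred between replicates, and rank follows signal, which chose the members, so these shares are a description that tests nothing. The conservative set held 696 of the 699 members. Here and below, peaks are not replicates of a condition, so intervals and p-values cover counting error over peaks only.

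Sequence was read at the summits of the mm9 peak set, since the genome at hand was mm9, and 665 of the 699 members had a matched mm9 peak (95.1%). Of the other 34, 30 lay on a chromosome for which no member could be matched. The exact NRF1 consensus lay within 50 bp of the summit in 57 of 665 members (8.57%, interval 6.68 to 10.9) and in 1 of 1330 windows centred 500 bp to either side (0.0752%; odds ratio 125, Fisher's exact test, adjusted p = 3.39e-26). Of all 10979 mm9 peaks, 8.74% held it. With up to 1 mismatch allowed, 261 members had a site (39.2%, interval 35.6 to 43.0), beside 4 of their 1330 flanking windows (0.301%) and 33.7% of all mm9 peaks. The other 404 members (60.8%) had none.

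The members' consensus share of 8.57% was lower than that of promoter peaks above the same signal, 702 of 4568 (15.4%, interval 14.3 to 16.4; odds ratio 0.516, Fisher's exact test, adjusted p = 3.33e-06). It did not differ past the threshold from that of intergenic peaks, 70 of 800 (8.75%; odds ratio 0.978, adjusted exact p = 0.926). With up to 1 mismatch the call changed, at 39.2% of members and 45.2% of intergenic peaks (exact p = 0.0225, not adjusted). The difference from promoter peaks depended on signal. With 4 signal classes as strata, the Mantel-Haenszel odds ratio was 0.934 (95% interval 0.690 to 1.26), so the call ended, and promoter peaks weighted to the members' signal classes held the consensus in 9.0%. At a signal of 200 or more, without strata, the members' consensus share was lower, 18.1% against 24.9% (exact p = 0.0257, not adjusted). The mix of signal differed there too, with 91 of 216 members and 1770 of 2582 promoter peaks at 400 or more. With up to 1 mismatch the pooled shares were 39.2% of members and 49.1% of promoter peaks, whereas the stratified odds ratio was 1.21 (95% interval 1.005 to 1.46), which turned the direction, though not in every class, as the shares by class show.

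Within the members the site share went up with signal. Below a signal of 100 the consensus lay under 7 of 255 members (2.75%), from 100 to 200 under 11 of 194 (5.67%), from 200 to 400 under 16 of 125 (12.8%), and at 400 or more under 23 of 91 (25.3%, interval 17.5 to 35.1). The shares with up to 1 mismatch were 22.4%, 35.6%, 56.0% and 71.4% of members in the same order, beside 17.9%, 29.1%, 47.3% and 80.3% of promoter peaks. Members were thus higher by value than promoter peaks below 400 and lower at 400 or more. Intergenic peaks had 27.1%, 48.2%, 60.3% and 78.3%, above the members by value in each class, with no test by class. Promoter peaks had the exact consensus in 1.19%, 5.93%, 14.7% and 29.7% over these classes, and the members' intervals overlapped the promoter intervals in each class.

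**Figure D2:**
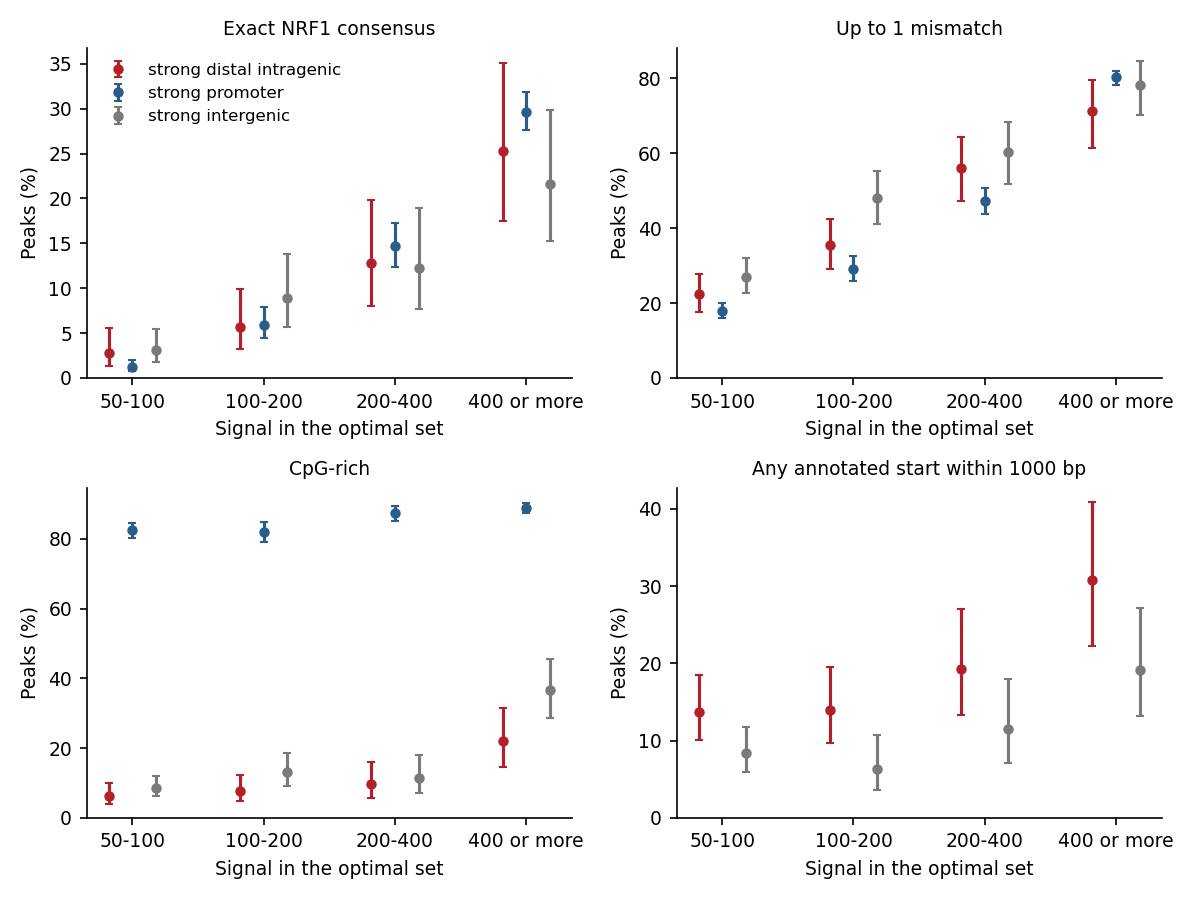
Share of peaks (vertical, percent) with the exact NRF1 consensus, with a site of up to 1 mismatch, with CpG-rich surroundings and with an annotated transcript start within 1000 bp, in 4 classes of signal (horizontal), for strong distal intragenic, promoter and intergenic peaks; bars are 95% Wilson intervals. The site shares climb with signal in every class of peak, the CpG-rich share of promoter peaks is 82.1% or more and that of the intragenic peaks reaches 22.0% at most; the panel of annotated starts leaves promoter peaks out.

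Where a site was present it lay close to the summit in most members. Among the 277 members with a site of up to 1 mismatch within 500 bp, the nearest site was centred a median of 10.5 bp from the summit and within 20 bp in 240 (86.6%). Promoter peaks had a median of 12.5 bp with 72.1% within 20 bp, and intergenic peaks 10.5 bp with 85.7%. Matches at more than 1 position within 50 bp of the summit were seen in 54 members (8.12%), beside 10.1% of promoter and 9.38% of intergenic peaks. Such matches can overlap within the same stretch of bases, so they need not be separate sites.

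**Figure D3:**
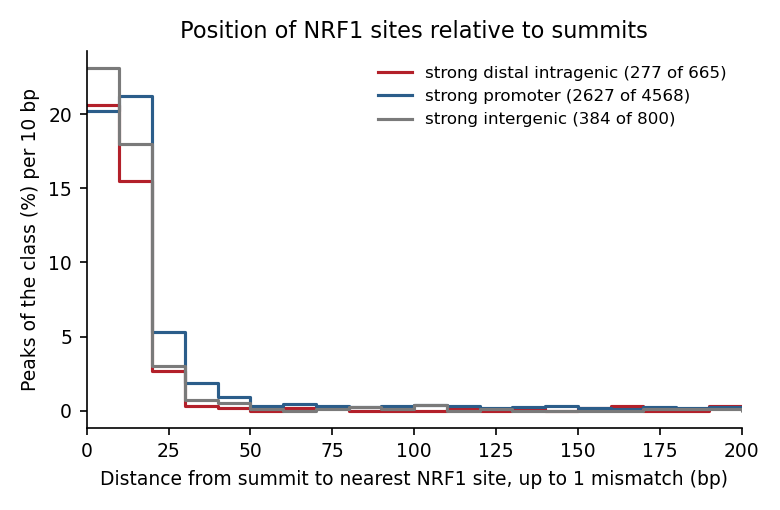
Distance in bp from the summit to the nearest NRF1 site of up to 1 mismatch (horizontal), as the percentage of peaks of each class per 10 bp (vertical), for strong distal intragenic peaks (277 of 665 with a site within 500 bp), promoter peaks and intergenic peaks. All 3 lines fall steeply beyond 20 bp, and 86.6% of the sites of the intragenic peaks lie within that distance.

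Pooled over signal, the letters under the sites differed between members and promoter peaks. Site-bearing peaks numbered 261 among the members, 2242 among promoter peaks and 362 among intergenic peaks. Each 10-base form was counted together with its reverse complement, in every peak that held it within 50 bp of the summit. A peak with several forms counts under each of them. Of 31 forms tested, 7 differed in share between members and promoter peaks (22.6%), and 4 were higher in members (12.9%). GCACATGCGC was held by 34 members (13.0%) and by 3.08% of promoter peaks (Fisher's exact test, adjusted p = 2.45e-09). GAGCATGCGC was held by 39 members (14.9%) and by 5.80% of promoter peaks (adjusted exact p = 6.69e-06). These 2 are the forms printed above for Manba and Srcin1.

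GCGCATGCCC, printed for Ppa2, was held by 7.28% of site-bearing members and 2.19% of promoter peaks (adjusted exact p = 0.000268). GCGCATGCAC, printed for Itpkb, was held by 3.07% and 0.714% (adjusted exact p = 0.00922). In the other direction, GCGCAGGCGC was held by 19 members (7.28%) and by 26.1% of promoter peaks (adjusted exact p = 4.02e-12). The consensus form GCGCACGCGC was held by 10.3% of site-bearing members and 19.9% of promoter peaks (adjusted exact p = 0.000688). GCGCAAGCGC was held by 1.15% and 5.62% (adjusted exact p = 0.00299). Intergenic peaks had GCACATGCGC in 11.9%, GAGCATGCGC in 19.6% and GCGCAGGCGC in 9.12%, nearer to the members than to promoter peaks for these forms, with no test of it.

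The forms raised in members each hold a lone CpG, where the palindrome GCGCATGCGC holds 2. Of the site-bearing members, 98 (37.5%) had a lone CpG in the nearest site, beside 10.9% of promoter peaks and 38.1% of intergenic peaks. The exact consensus, which holds 2 CpGs or more, was taken as that site wherever the window held it, even if another lay nearer. Sites with 2 CpGs made up 38.7% in members and 56.1% at promoters, and sites with 3 made up 19.2% and 28.6%. Promoter peaks lie in DNA of higher CpG content, as given below, and the part of that background in the choice of form was not tested. Site-bearing promoter peaks were also stronger, with 1421 of 2242 at a signal of 400 or more, beside 65 of 261 members. The shares of forms and CpGs are pooled over signal, and its part was not tested.

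A count of all 8-mers, without a motif given, put parts of the same site first. Of 5619 8-mers tested at the members' summits against their own flanks, 251 were more frequent at the summits (4.47%) and 41 less frequent, at an adjusted Fisher's exact p under 0.05. CATGCGCA led, with 166 summits (24.96%) and 0.150% of flanks, beside 10.9% of promoter summits and 10.5% of all mm9 peaks (adjusted exact p = 4.92e-79 against flanks). GCATGCGC was found at 22.7% of the members' summits, 0.376% of their flanks and 12.1% of all mm9 peaks. CATGCTCA, which holds no CpG, lay under 13.2% of the members' summits and in 0.376% of flanks, beside 1.77% of promoter summits and 4.26% of all mm9 peaks. GCCTGCGC lay under 6.77% of the members' summits, beside 20.2% of promoter summits and 11.7% of all mm9 peaks.

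The 6-base palindrome TGCGCA, which overlaps many of these sites, lay within 50 bp of 279 of 665 summits (42.0%) and in 0.526% of their flanks, beside 34.7% of promoter peaks, 42.1% of intergenic peaks and 27.1% of all mm9 peaks. Among the 404 members with no site of up to 1 mismatch, 139 held it (34.4%, interval 29.9 to 39.2), beside 0.371% of their flanks and 22.9% of such promoter and 30.4% of such intergenic peaks. Bicral and the peak shared by Macrod1 and Flrt1, printed above, are examples at signals of 649 and 560. These counts describe letters in the window, and what binds there was not tested.

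Base composition separated these peaks from promoter peaks. CpG observed/expected is the number of CpGs divided by the number expected from the C and G content, and a window of 1000 bp around the summit was called CpG-rich above 0.6 with a GC content above 50%. By that measure 63 of 665 members were CpG-rich (9.47%, interval 7.48 to 11.9), against 3920 of 4568 promoter peaks (85.8%; odds ratio 0.0173, exact p written at its floor of 1e-300) and 115 of 800 intergenic peaks (14.4%; adjusted exact p = 0.00968). The median CpG observed/expected was 0.308 in members (quartiles 0.224 and 0.423), 0.783 at promoter peaks and 0.358 at intergenic peaks, and the median GC content was 49.5%, 59.8% and 49.0%. The CpG-rich share of members was 6.28% below a signal of 100 and 22.0% at 400 or more, and 7 of the 20 strongest members were CpG-rich. The peaks of Maml3 at 0.298, Arid1b at 0.314 and Lmtk2 at 0.217 were not.

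**Figure D4:**
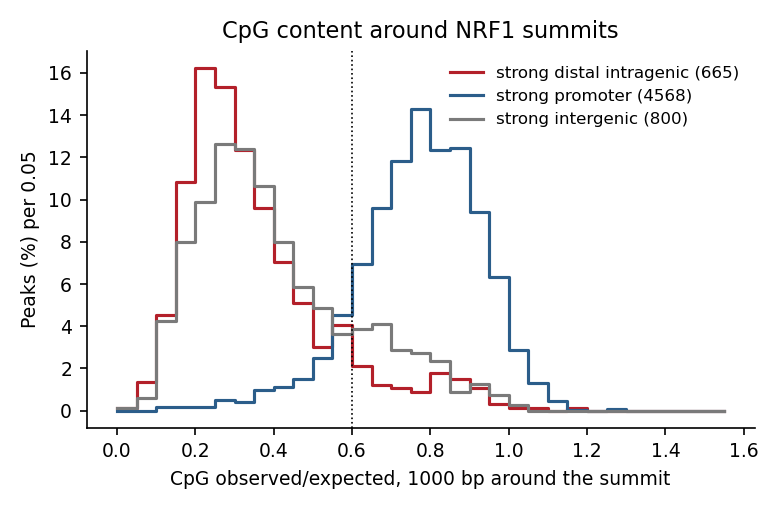
CpG observed/expected in the 1000 bp around the summit (horizontal) and the percentage of peaks per step of 0.05 (vertical) for strong distal intragenic, promoter and intergenic peaks; the dotted line marks 0.6. The intragenic peaks centre on a median of 0.308 and the promoter peaks on 0.783, and the few intragenic peaks right of the line overlap the promoter range.

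Pooled over signal, site share and CpG content went together within the members. Both shares also went up with signal, as given above, and the part of signal was not tested. CpG-rich members held the exact consensus in 12 of 63 (19.05%), and the other members in 45 of 602 (7.48%; Fisher's exact test, adjusted p = 0.0121). With up to 1 mismatch the shares were 52.4% and 37.9% (adjusted exact p = 0.0464). Most members were not CpG-rich, 228 of the 261 with a site and 602 of all 665 (90.5%). Runs of CA repeats, 10 units or more within 150 bp of the summit, were found at 42 members (6.32%), 46 promoter peaks (1.01%) and 66 intergenic peaks (8.25%), with an adjusted exact p of 1.97e-15 for members against promoter peaks. The part of such repeats in these peaks was not tested.

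Many members lie near the start of a transcript that the choice of start sites had missed. In GENCODE vM1 on mm9, 114 of 665 summits were within 1000 bp of the start of an annotated transcript (17.1%, interval 14.5 to 20.2), 106 of them at a transcript of a protein-coding gene, and 80 of 800 intergenic summits were. By the same annotation, 187 members (28.1%) lay within 5000 bp of such a protein-coding start. The name distal therefore holds for the RefSeq starts used in the choice, and not for every annotated start. The share with a start within 1000 bp was 13.7% below a signal of 100 and 30.8% at 400 or more.

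Among the 20 strongest members, 8 had such a start. The summits lay 39 bp from a start in Maml3, 45 bp in Dennd2a, 209 bp in Cyrib, 22 bp in Gcfc2, 29 bp in Ankrd24, 187 bp in Tnip1, 11 bp in Ttll1 and 480 bp in Cacna1a. Arid1b, Lmtk2 and Cblb had none, with the nearest annotated start 45846, 8776 and 28813 bp away. Members with a start within 1000 bp were CpG-rich in 41 of 114 (36.0%), against 22 of 551 without one (3.99%; odds ratio 13.5, Fisher's exact test, adjusted p = 6.02e-19). They held the exact consensus in 20 of 114 (17.5%), against 37 of 551 without a start (6.72%, adjusted exact p = 0.00152). The shares with up to 1 mismatch, 43.9% and 38.3%, did not differ past the threshold (adjusted exact p = 0.372). These comparisons were pooled over signal, with which the share near a start also rose, and the part of signal was not tested.

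Most summits were intronic. Of the 665, 144 lay in intron 1 of the longest transcript (21.7%), 86 in intron 2 (12.9%) and 289 in a later intron (43.5%). In exons of protein-coding genes lay 112 (16.8%), 59 of them in coding sequence, among them the peaks of Srcin1, Sptbn4, Cacna1a and Ankrd24. A site of up to 1 mismatch was found in 43 of 112 exonic members (38.4%) and in 218 of the 553 members outside exons (39.4%), which did not differ past the threshold (odds ratio 0.958, adjusted exact p = 0.926). On mm10, 14 of the 699 members (2.00%) lay within 1000 bp of the start of a noncoding RNA gene in RefSeq, the strongest at Dennd2a (657) beside 8030453O22Rik, 75 bp away.

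Sites of other factors were rare at the members' summits. The most frequent was the antioxidant response element at 5.41%, close to its 4.89% in the members' own flanks. Of 14 further motifs, sought on both strands within 50 bp, 10 differed in share between members and promoter peaks after adjustment, 6 lower and 4 higher in members. These shares are pooled over signal and base composition, which both differed between the classes, and their part was not tested. Lower were the ETS site CCGGAAGT (0.150% in members, 4.12% at promoter peaks, 3.06% of all mm9 peaks), the SP/KLF site GGGGCGGGG (1.80%, 8.36% and 5.71%), the YY1 site AAGATGGCG (0.301%, 3.04% and 2.49%), the NFY site AGCCAAT (1.35%, 3.61% and 3.13%), the E2F site TTCCCGCC (0.301%, 1.55% and 1.11%) and the E-box CACGTG (3.16%, 5.17% and 4.51%). Their adjusted Fisher's exact p-values ran from 1.24e-10 for SP/KLF to 0.0373 for the E-box, whose call was lost within 100 bp (adjusted exact p = 0.0759). Intergenic peaks held these sites in 0.5% (E2F) to 3.75% (E-box).

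Higher in members were the AP-1 site TGANTCA (3.76% in members, 0.876% at promoter peaks, 2.09% of all mm9 peaks, adjusted exact p = 5.36e-07), the PU.1 site GAGGAAGT (2.11%, 0.722% and 1.15%, adjusted exact p = 0.00353), the CTCF consensus (1.05%, 0.263% and 1.27%, adjusted exact p = 0.0119) and the RUNX site TGTGGTT (1.80%, 0.722% and 1.36%, adjusted exact p = 0.0167). Intergenic peaks had AP-1 in 2.75%, PU.1 in 2.0%, CTCF in 2.25% and RUNX in 1.88%, with no test against the members. In the members' own flanks AP-1 stood at 2.78%, PU.1 at 0.752%, CTCF at 0.0752% and RUNX at 2.33%. The RUNX share at summits was thus below that of the surrounding DNA, and AP-1 was 25 of 665 summits beside 37 of 1330 flanks. CREB (TGACGTCA), ZNF143 (ACTACAATT), EBF and the antioxidant response element (TGACNNNGC, which can overlap the CREB and AP-1 sites) did not pass, with adjusted exact p-values from 0.0868 to 1.0. Within 100 bp of the summit CREB passed, lower in members (0.902% and 2.95%, adjusted exact p = 0.00181), and so did EBF, higher in members (1.504% and 0.525%, adjusted exact p = 0.00982).

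The members lay in 630 genes, 545 with a lone member, 76 with 2 and 9 with 3 or more. In more than 1 gene lay 6 members, and each of those overlapping genes was counted as a host. Host genes were long, with a median of 92.2 kb beside 17.5 kb over all protein-coding genes, and the rule, which asks for over 5000 bp from a start, favours long genes. The summits lay a median of 24417 bp from the nearest start (quartiles 12261 and 54371), with 193 over 50000 bp and the farthest at 447729 bp. Of 605 host genes with known strand, 279 also had an optimal peak within 1000 bp of a start (46.1%), beside 40.8% of the 20364 protein-coding genes with known strand. The host share is close to that background.

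Mical3, which encodes a flavin monooxygenase that acts on actin, held 4 members, at signals of 542, 258, 170 and 147. The strongest had 262 in replicate 1 and 284 in replicate 2, and none of the 4 had a site of up to 1 mismatch within 50 bp. Trappc9, a gene for a subunit of a vesicle tethering complex, held 3, at 308, 303 and 238, of which the last 2 overlap each other and share the same peak in each replicate (144 and 162). In all, 6 members share their replicate peaks with a neighbour in this way, and 6 pairs of members lie under 500 bp apart. Itpkb, whose inositol kinase is needed in lymphocyte development, held 518, 383 and 54.5.

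Pax5, the transcription factor that fixes B cell identity, held members at 258, 201 and 133, at 80.5, 40.7 and 138 kb from the start of the gene. The strongest had 138 in replicate 1 and 119 in replicate 2, and the other 2 had 116 and 85.9, and 63.2 and 69.6. All 3 lie in introns of CpG-poor DNA, at 0.179 to 0.220 observed/expected, and none held a site of up to 1 mismatch. Bcl2, which encodes an inhibitor of apoptosis, held 106, 77.1 and 59.6, the strongest on the form GCACATGCGC. Grb10, an adaptor of insulin receptor signalling, held 320, 134 and 60.5, and Srcin1 held 633, 160 and 50.4. Arhgap24, a gene for a Rac GTPase activating protein, held 211, 60.3 and 50.1, and Pebp4 held 311, 225 and 157.

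**Figure D5:**
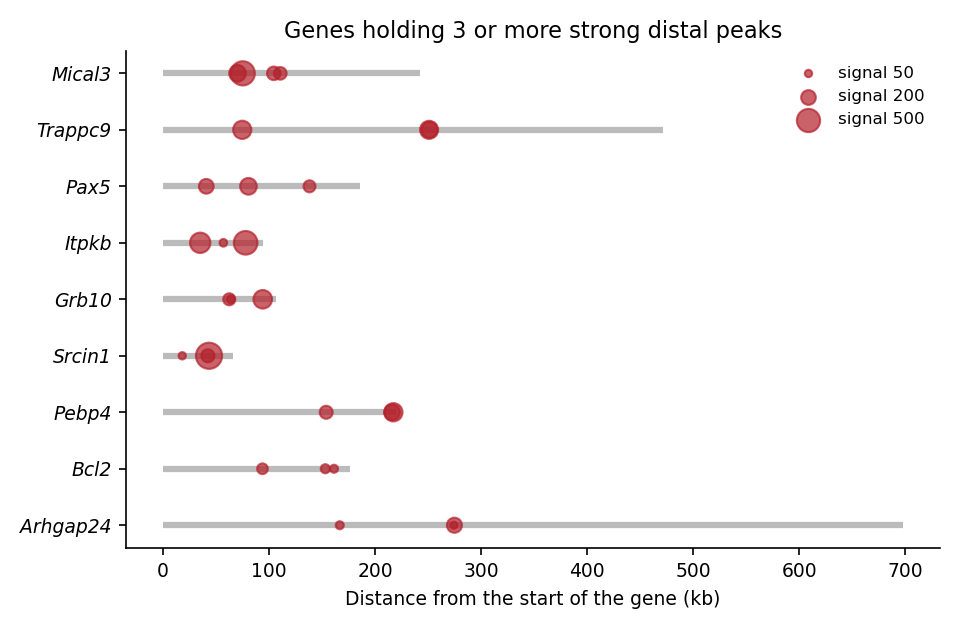
The 9 genes with 3 or more strong distal peaks, drawn as bars from their start (0) to their end in kb (horizontal, mm10 gene bounds), with each peak as a dot whose area follows its signal. Mical3 holds 4 peaks and the other genes 3 each; the dots of Trappc9 near 251 kb are the 2 overlapping peaks.

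Of 25 genes on a list of B cell factors and surface molecules, 4 held a member (16.0%), beside 3.05% of the 20665 protein-coding genes; gene length, which bears on these shares, was not matched. Beside Pax5 they were Ebf1 at 68.7 (35.4 and 34.8 in replicates 1 and 2), Pou2f2, the octamer factor Oct-2, at 56.6 (32.8 and 22.2) and Mef2c at 55.9 (34.8 and 20.6). The Ebf1 peak held GCACATGCGC at 6.5 bp and the Pou2f2 peak the consensus form GCGCACGCGC at 14.5 bp, 318 bp from a start of another Pou2f2 transcript. These 3 lie close to the signal threshold. No member lay in Nrf1 itself, nor in Ikzf1, Bcl6, Irf4, Foxp1 or Myc.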

How the data were processed

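NRF1 ChIP-seq peak lists of 2 biological replicates of CH12.LX cells were used. According to the notes deposited beside them, the authors called a permissive list of peaks and background on mm10 for either replicate and for both together, against a control, and then kept as optimal and conservative sets the peaks whose ranks recurred (irreproducible discovery rate). The mm9 set was made from the 2 replicates, and its named inputs include no control. The control library was not analysed here. The aligner, peak caller and read numbers were not given in the sources used here, which leaves depth unknown. The signal of each peak is the authors' own value, on a scale those notes do not state, and it served to choose and describe peaks within the mm10 lists. The deposited rank score was 1000 for every member and entered no test.

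Start sites on mm10 came from the RefSeq gene table and promoter sequences of GRCm38.p6, 30576 in all. Strand was taken for 16457 of 20665 protein-coding genes from the promoter table, for 3538 from GENCODE by symbol and for 369 by synonym, and 301 genes without strand gave no start. The genome at hand was NCBIM37, and no coordinate was converted. Of 31238 RefSeq promoter sequences, 30756 matched NCBIM37 exactly once. An mm10 peak and an mm9 peak were paired where both lay, within 100 bp, at the same distance from the same matched promoter sequence. This paired 10059 of 17256 optimal peaks, with a median gap of 5 bp between the distances. The plan was to pair by gene and distance from its start.

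Motifs were sought on both strands, and two-sided Fisher's exact tests compared shares, with p-values adjusted by Benjamini-Hochberg within families. The families were 14 comparisons of shares (of which the 2 on recurrence are not reported as tests), 14 motifs separately within 50 bp and within 100 bp, 31 site forms and 5619 8-mers. The software was Python 3.11.15, scipy 1.17.1, statsmodels 0.14.6 and pysam 0.24.0. P-values below 1e-300 are written as 1e-300. 8-mers were tested if present in 10 or more windows, and the motif and 8-mer searches were tested on simulated sequences. The members, the lists and the rule were chosen with earlier results of these data known. The counts of 8-mers, site forms, TGCGCA and CA repeats, and the tests of shares within the members, were added after the data were seen.

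Genes named by rule were the hosts of the 20 strongest members, hosts of 3 or more members, the 3 peaks on each side of the signal and distance thresholds, hosts on the B cell list, Nrf1, and the members with printed sequences; 2 genes that the rule names are not reported here. The genes carrying the 4 site forms and those at noncoding starts were chosen after their values were seen. The alternatives were the conservative set, other signal and distance thresholds, other overlaps and ranks for recurrence, each replicate alone, other motif windows, mismatches and flanks, mm9 peaks classed on mm9 alone, and, added after seeing the data, signal strata and the peaks without chromosome 11 or without an annotated start within 1000 bp.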

Additional observations from a re-analysis of the deposited data

How the results depend on the processing

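Of 28 alternatives, 21 kept the direction, the side of the threshold and, for counts, a value within 1.5 times. A signal threshold of 100 left 437 peaks. The recurrence share was 98.4% of members and 98.2% of promoter peaks when 50% of the peak had to overlap, which turned the direction, and 95.6% against 98.0% with the shorter ranked lists, a difference that rank by signal can set. Against 1 replicate at a time, it ran from 99.7% to 100%. Within signal classes the consensus share, 8.57% of members, had a Mantel-Haenszel odds ratio of 0.934 against promoter peaks, with an interval that holds 1, and with 1 mismatch allowed (39.25%) the direction turned, with an odds ratio of 1.21. With 1 mismatch allowed, the share of 39.25% fell below the 45.25% of intergenic peaks (exact p = 0.0225). A limit of 500 bp in place of 1000 bp left 14.3% of members at an annotated start. Without chromosome 11 the consensus shares were 8.95% of members and 15.8% of promoter peaks. The CpG-rich call against promoter peaks held in the 4 alternatives run, while the members' share of 9.47% moved to 14.7% over 500 bp, 5.09% with peaks classed on mm9, 3.99% with no annotated start within 1000 bp and 9.29% without chromosome 11. Within 100 bp of the summit 11 of 14 other motifs passed in place of 10, with CREB and EBF gained and the E-box lost.

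No paired analysis of samples was possible because the series has 1 group, and the tests of summits against flanks left their pairing out. Unknown depth, the 34 members with no paired mm9 peak, which have no sequence values here, and a gene annotation of mm9 that is older than the RefSeq table limit what these shares can show.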

Other observations

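Members of 4 loci known for genomic imprinting, the expression of a gene from only the maternal or paternal copy, were looked at after their values were seen, with no test. In Kcnq1 a peak of 178 (99.3 in replicate 1 and 79.8 in replicate 2; chromosome 7, 143296438 to 143296624, mm10) lay 17 bp from the start of Kcnq1ot1, the long noncoding RNA transcribed against Kcnq1. It held no site of up to 1 mismatch, and its CpG observed/expected was 0.490. In Trappc9 the overlapping peaks of 303 and 238 lay within Peg13, a noncoding RNA gene inside Trappc9, at CpG observed/expected of 0.591 and 0.728. In Inpp5f a peak of 457 (240 and 218 in replicates 1 and 2) held the consensus form GCGCACGCGC 12.5 bp from its summit, in CpG-rich DNA of 0.805, and lay 75 bp from the start of another Inpp5f transcript. In Grb10 the 3 members lay in DNA of 0.197 to 0.266, and none had a site of up to 1 mismatch or an annotated start within 1000 bp. Peak lists do not separate the parental copies.

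Ppa2 and Arhgap24 each held a strong member beside a weaker one near the start of another transcript of the gene. In Ppa2 a peak of 596 (303 and 297 in replicates 1 and 2) lay 32 bp from such a start, and a peak of 172 (72.1 and 99.5) lay 363 bp from one. In Arhgap24 the peak of 211 (96.6 and 116) lay 482 bp from a start and the peak of 50.1 lay 28 bp from one. Manba was bound 10 bp from such a start too, at a signal of 514.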
